A study of Mus musculus with 12 samples.

Results

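The mouse urinary bladder genes described here belong to no known part of the circadian clock. They are 7: Cys1, Tspan4, Foxs1, Leo1, Rasd2, Creg2 and Angptl7. They were picked because their levels followed a 24 h wave in the same 12 arrays that are reported below, and their waves are therefore given as a description and support nothing. The rule took every probe that carries one of these names in the scanner files, out of 41174 probes. After dim probes were left out, 18394 genes were tested, each with 1 probe. The rule found 6 of the 7 genes with 7 probes. No probe carries the name Foxs1; the probe listed as Fkhl18, an older name of that gene in the RefSeq table, stands for it, which makes 8 probes for 7 genes. Creg2 has 2 probes and each other gene has 1.

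The study followed the bladder of mice kept in darkness, where time cues from light are absent. Total RNA of whole bladder from female C57BL/6 mice aged 10 weeks was labelled with Cy3 and hybridised to Agilent 1-colour arrays. The mice had been acclimated for 2 weeks to cycles of 12 h light and 12 h dark before constant darkness, and bladders were taken at circadian times (CT) 0, 4, 8, 12, 16 and 20, with 2 arrays at each time. All 6 groups shared strain, sex, age and darkness, and there was no untreated or light-kept group. The labels do not say whether each array held the RNA of 1 mouse or how long the darkness lasted. The spread between arrays that enters every error below may therefore be technical.

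In the circadian clock of mammals, the proteins CLOCK and ARNTL switch on genes through a DNA element called the E-box. Their targets include the Per and Cry genes, whose proteins return to repress them, and Nr1d1 and Dbp. REV-ERB, the product of Nr1d1, competes with ROR proteins at another element and drives Arntl and Nfil3 to peak in the opposite phase, and DBP and TEF act on a further element, the D-box. Clock genes cycle in the bladder as in most organs, and urination itself follows the time of day. The 7 genes lie outside this loop. Leo1 is a subunit of the PAF1 complex, which travels with RNA polymerase II during elongation, and Foxs1 is a forkhead transcription factor known from vascular mural cells and neural crest derivatives. Cys1 encodes cystin, a protein of the primary cilium whose loss causes cystic kidneys in mice. Tspan4 is a tetraspanin of the plasma membrane known from migrasomes, and Rasd2 encodes Rhes, a small Ras-like GTPase best known from the striatum. Creg2 and Angptl7 encode secreted glycoproteins, the first known from brain and the second, an angiopoietin-like factor, from the eye.

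RefSeq promoter sequences (build GRCm38.p6, 250 bases before to 50 after each start) matched 6 of the 7 genes with 7 promoters. They were searched on both strands for the E-box CACGTG, its variant CACGTT, the D-box forms TTATGTAA and TTACGTAA, the Rev-erb and Ror core as TAGGTCA or TGGGTCA, the cAMP response element TGACGTCA and its core TGACG, which overlaps the full element, and the glucocorticoid receptor element. The 3 promoters that held an E-box or a Rev-erb and Ror core are shown, with the matching letters in capitals, because these are the elements through which the clock genes named here are read.

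Tspan4, second start, chr7:141476130-141476429, plus strand: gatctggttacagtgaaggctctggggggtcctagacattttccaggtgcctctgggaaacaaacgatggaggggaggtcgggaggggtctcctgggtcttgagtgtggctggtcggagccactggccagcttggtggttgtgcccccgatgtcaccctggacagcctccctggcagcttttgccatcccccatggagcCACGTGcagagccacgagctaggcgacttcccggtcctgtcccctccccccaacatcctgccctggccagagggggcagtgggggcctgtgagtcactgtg
Leo1, chr9:75441274-75441573, plus strand: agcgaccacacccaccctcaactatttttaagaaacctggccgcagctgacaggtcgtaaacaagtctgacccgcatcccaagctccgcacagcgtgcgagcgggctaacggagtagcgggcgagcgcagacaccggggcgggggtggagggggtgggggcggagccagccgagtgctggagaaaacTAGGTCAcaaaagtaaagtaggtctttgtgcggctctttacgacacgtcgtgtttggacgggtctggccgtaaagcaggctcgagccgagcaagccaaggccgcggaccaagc
Rasd2, chr8:75213694-75213993, plus strand: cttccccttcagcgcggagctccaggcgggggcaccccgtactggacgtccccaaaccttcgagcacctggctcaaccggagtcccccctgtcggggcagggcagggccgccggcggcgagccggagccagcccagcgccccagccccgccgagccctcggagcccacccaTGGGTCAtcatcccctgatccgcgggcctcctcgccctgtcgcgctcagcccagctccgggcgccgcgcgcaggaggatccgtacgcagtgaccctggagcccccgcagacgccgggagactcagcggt

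The E-box of Tspan4 begins at -51 from the start, and 7.15% of the 32851 promoters in the table hold this motif. The Leo1 promoter has TAGGTCA at -63, present in 2.61% of promoters, and the Rasd2 promoter has TGGGTCA at -79, present in 3.98%. In the Creg2 promoter only TGACG was found, at -92, a motif in 20.8% of promoters. None of the motifs was found in this window of Cys1, of the other Tspan4 start or of Angptl7. The motifs that no promoter of these genes held were CACGTT, in 4.68% of all promoters, TTATGTAA in 0.938%, TTACGTAA in 0.119%, TGACGTCA in 1.79% and the glucocorticoid receptor element in 0.475%. A match here is a stretch of letters in a window and not a measured site.

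Levels are given as log2 of the background-corrected signal relative to the 75th percentile of the array's probes, so 1 unit is a doubling and a negative level is a signal below that percentile. The level of one probe cannot be set against that of another, and only changes over time are compared between genes. The wave of a gene is the 24 h cosine fitted through its 12 levels. Its amplitude is the distance from mean to peak on the log2 scale, its fold is the fitted peak over the fitted trough, and its peak is a circadian time. The SE of an amplitude or peak and the intervals between peaks come from the residuals of this fit. Besides the spread between arrays they can hold departures from the cosine and differences between slides. By an adjusted p (limma, Benjamini-Hochberg over all genes, threshold 0.05) 114 genes had such a wave, which is 0.62% of those tested. Of these, 74 genes (0.402%) peaked between CT0 and CT12 and 40 (0.217%) between CT12 and CT24. All 7 genes were among them, which is how they were chosen, 2 in the first of these spans and 5 in the second.

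The 12 arrays were alike in depth. The share of spots well above background ran from 64.2% to 70.2% and no spot was saturated. Over the genes tested, with dim probes left out, r between the 2 arrays of a time lay at 0.984 to 0.993. The tissue's own markers were present: 8 of 8 urothelial and 7 of 7 smooth muscle markers were well above background on all 12 arrays. Each of the 3 slides held 2 neighbouring times, CT0 with CT4, CT8 with CT12, and CT16 with CT20, in that order of position, so within a slide the step in time and the position cannot be told apart. As these are whole bladders, fewer cells of a type and less RNA per cell cannot be told apart either.

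**Figure D1:**
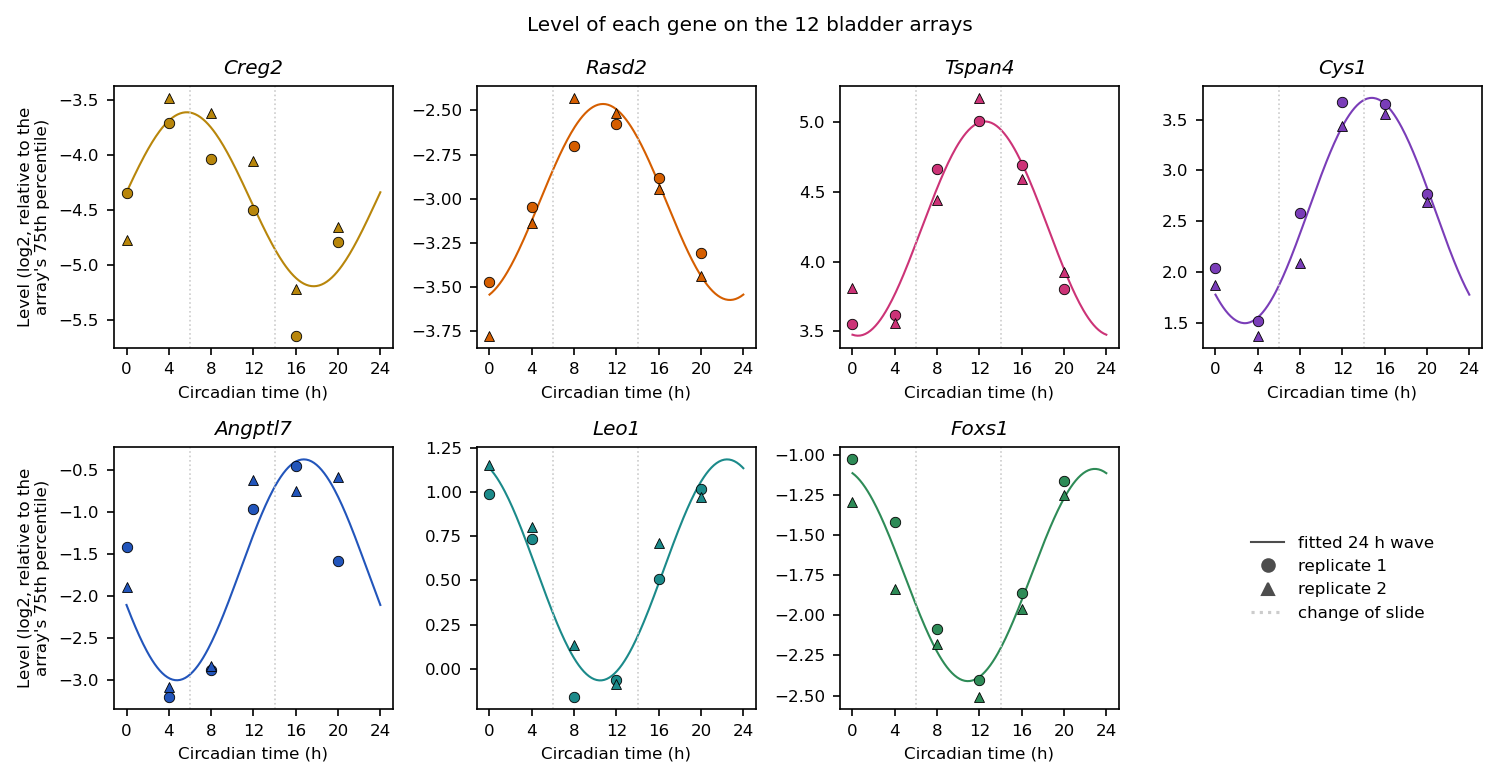
Level of each gene (log2, relative to the array's 75th percentile) against circadian time in h, with circles for replicate 1, triangles for replicate 2, the fitted 24 h wave as a line and dotted lines where the slide changes. Panels run in order of the fitted peak, from Creg2 at CT5.7 to Foxs1 at CT22.9.

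Leo1, the subunit of the elongation complex, was highest at CT20 and CT0, around the end of the subjective night, and lowest at CT8 and CT12. Its probe lies at chr9:75503366-75503425 (mm7, plus strand, the coordinates of the array's design; its place within the gene was not analysed here). The 2 arrays of each time read 0.99 and 1.15 at CT0, 0.73 and 0.80 at CT4, -0.16 and 0.14 at CT8, -0.08 and -0.06 at CT12, 0.51 and 0.71 at CT16, and 0.97 and 1.01 at CT20. The arrays of CT0 and CT20 overlapped, as did those of CT8 and CT12, and every other pair of neighbouring times was separate. The mean at CT0 was 2.21-fold that at CT12, and the difference of 1.14 in log2 stood against a within-time SD of 0.12 (6 pairs of arrays). The fitted amplitude was 0.62 ± 0.06 (SE, n = 12 arrays), a 2.38-fold wave with its peak at CT22.5 ± 0.36 h. On the first slide Leo1 was 0.30 lower at CT4 than at CT0 in log2, and on the third it was 0.38 higher at CT20 than at CT16. On the second slide the arrays of CT8 and CT12 overlapped.

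Foxs1, the forkhead factor, ran almost together with Leo1. Its probe is at chr2:152672959-152673018 (mm7, minus strand). It read -1.29 and -1.03 at CT0, -1.84 and -1.42 at CT4, -2.18 and -2.08 at CT8, -2.51 and -2.41 at CT12, -1.96 and -1.86 at CT16, and -1.25 and -1.16 at CT20. The levels fell without overlap from CT0 through CT4 and CT8 to CT12 and rose without overlap to CT20, while CT20 and CT0 overlapped. The mean at CT0 was 2.46-fold that at CT12 against a within-time SD of 0.15 in log2. The fitted wave was 2.50-fold (amplitude 0.66 ± 0.06 SE, n = 12) with its peak at CT22.9 ± 0.34 h. It was 1.99-fold with normexp background correction and 1.95-fold in the authors' value table. Within slides the mean was lower by 0.47 at CT4 than at CT0 and by 0.33 at CT12 than at CT8, and higher by 0.70 at CT20 than at CT16. Of 8 markers of mural cells, a cell type in which Foxs1 is known, 7 were well above background on all arrays and Cox4i2 on none. The mean of their summed log2 level was highest at CT0 (5.03) and lowest at CT12 (4.84), the same times as for Foxs1. The within-time SD of that sum was 0.10. Their summed log2 level was 4.90 to 5.17 at CT0, 4.86 to 4.91 at CT4, 4.87 to 4.92 at CT8, 4.76 to 4.93 at CT12, 4.88 to 4.98 at CT16 and 4.81 to 4.92 at CT20, and the part of mural cells in the Foxs1 wave was not tested.

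Tspan4, the tetraspanin, had its highest levels at CT12. The probe is at chr7:137910580-137910639 (mm7, plus strand). Its 2 arrays read 3.55 and 3.81 at CT0, 3.56 and 3.61 at CT4, 4.45 and 4.66 at CT8, 5.01 and 5.17 at CT12, 4.59 and 4.69 at CT16, and 3.80 and 3.92 at CT20. CT12 stood above all other times, and CT0 overlapped with both CT4 and CT20. The mean at CT12 was 2.84-fold that at CT4, a log2 difference of 1.51 against a within-time SD of 0.12. The fitted wave was 2.90-fold (amplitude 0.77 ± 0.07 SE, n = 12) and peaked at CT12.5 ± 0.35 h. Within slides Tspan4 was 0.54 higher at CT12 than at CT8 and lower by 0.78 at CT20 than at CT16, and the arrays of CT0 and CT4 overlapped.

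Cys1, the cilium protein, had the second largest wave of the group and the smallest error of its peak time. Its probe is at chr12:22502354-22502413 (mm7, minus strand). It read 1.87 and 2.05 at CT0, 1.38 and 1.52 at CT4, 2.09 and 2.59 at CT8, 3.44 and 3.68 at CT12, 3.55 and 3.66 at CT16, and 2.69 and 2.77 at CT20. CT12 and CT16 overlapped and formed the top, and all other neighbouring times were separate. The mean at CT16 was 4.46-fold that at CT4, a log2 difference of 2.16 against a within-time SD of 0.18. The fitted wave was 4.64-fold (amplitude 1.11 ± 0.08 SE, n = 12) with its peak at CT14.8 ± 0.26 h. Within slides Cys1 was 0.51 lower at CT4 than at CT0, 1.22 higher at CT12 than at CT8, and 0.87 lower at CT20 than at CT16.

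Rasd2, the Ras-like GTPase, was high from CT8 to CT12. Its probe is at chr8:73765582-73765641 (mm7, plus strand) and gave processed signals of 60.6 to 170.3. The levels were -3.77 and -3.47 at CT0, -3.14 and -3.04 at CT4, -2.70 and -2.43 at CT8, -2.57 and -2.51 at CT12, -2.94 and -2.88 at CT16, and -3.44 and -3.31 at CT20. CT8 and CT12 overlapped, and the remaining neighbouring times were separate. The mean at CT12 was 2.11-fold that at CT0 against a within-time SD of 0.13 in log2. The fitted wave was 2.16-fold (amplitude 0.55 ± 0.05 SE, n = 12) with its peak at CT10.7 ± 0.36 h. It was 1.63-fold both with normexp background correction and in the authors' value table. On the first slide Rasd2 was 0.53 higher at CT4 than at CT0, and on the third it was lower by 0.46 at CT20 than at CT16. Skeletal muscle markers, 6 of 7 well above background on all arrays and 1 of 7 (Tcap) with a called wave, were also highest at these times, with a summed log2 level of 6.06 to 6.42 at CT8 and 6.15 to 6.32 at CT12, against 5.44 to 6.02 at CT0, 5.45 to 6.05 at CT4, 5.81 to 5.96 at CT16 and 5.24 to 5.51 at CT20. Of 12 markers of autonomic ganglion neurons, 4 were well above background on all arrays and 3, Th, Chrna3 and Chrnb4, on none, and their summed level was 7.15 to 7.26 at CT0, 7.07 to 7.15 at CT4, 7.24 to 7.28 at CT8, 6.73 to 7.02 at CT12, 7.13 to 7.16 at CT16 and 7.17 to 7.34 at CT20. That sum is nearly all Uchl1 (6.72 to 7.33 over the arrays) and follows that gene rather than the list. The skeletal muscle sum is for the most part Acta1 (4.95 to 6.05 over the arrays), with Tcap at -1.12 to 3.52, and follows Acta1 more than the list. The part of either cell type in the Rasd2 wave was not tested.

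Angptl7, the secreted angiopoietin-like factor, changed most of the 7 genes and had the widest spread between arrays. Its probe is at chr4:147485417-147485476 (mm7, minus strand). It read -1.89 and -1.42 at CT0, -3.21 and -3.08 at CT4, -2.88 and -2.84 at CT8, -0.96 and -0.61 at CT12, -0.74 and -0.44 at CT16, and -1.58 and -0.58 at CT20. CT4 and CT8 were low on all 4 arrays and separate from every other time, whereas CT12, CT16 and CT20 overlapped and CT20 also overlapped with CT0. The mean at CT16 was 5.87-fold that at CT4, a log2 difference of 2.55 against a within-time SD of 0.35. The fitted wave was 6.22-fold (amplitude 1.32 ± 0.18 SE, n = 12) and peaked at CT16.8 ± 0.52 h. It was 4.23-fold with normexp background correction and 4.22-fold in the authors' value table. The rise came on 1 slide: the mean was 2.07 higher at CT12 than at CT8 in log2, 4.2-fold. The mean was lower by 1.49 at CT4 than at CT0, and the arrays of CT16 and CT20 overlapped. At CT20 the arrays lay 1.0 apart, the widest gap at any time in the group, and the summed level of 6 hepatocyte markers was -0.82 on the array where Angptl7 was lower and 5.30 on the other. At CT4 and CT12 too the array with the higher hepatocyte sum read higher for Angptl7, whereas at CT0, CT8 and CT16 it read lower. The part of hepatocyte transcripts in the Angptl7 levels was not tested. Without the CT20 array where Angptl7 was lower the wave was 7.33-fold, and without the other CT20 array 5.93-fold.

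Creg2, the secreted brain glycoprotein, peaked earliest in the cycle and had the dimmest probes. The brighter probe is at chr1:39864205-39864264 and the other at chr1:39862643-39862702 (mm7, both minus strand). The brighter probe, with processed signals of 16.7 to 79.0, read -4.78 and -4.34 at CT0, -3.71 and -3.48 at CT4, -4.04 and -3.62 at CT8, -4.50 and -4.06 at CT12, -5.64 and -5.22 at CT16, and -4.79 and -4.65 at CT20. CT16 lay below all other times, and CT4 overlapped with CT8 and CT0 with CT20. The mean at CT4 was 3.58-fold that at CT16 against a within-time SD of 0.26 in log2. The fitted wave was 2.99-fold (amplitude 0.79 ± 0.13 SE, n = 12) with its peak at CT5.7 ± 0.61 h. The size depends on how background is treated: it was 1.5-fold with normexp correction and 1.47-fold in the authors' value table, with peaks at CT5.6 and CT5.7. Within slides Creg2 was 0.97 higher at CT4 than at CT0, lower by 0.45 at CT12 than at CT8, and 0.71 higher at CT20 than at CT16.

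The dimmer Creg2 probe was well above background on 4 of 12 arrays, both arrays of CT4 and 1 each of CT8 and CT12. On those 4 arrays it read -5.82 and -5.36 at CT4, -5.95 at CT8 and -6.26 at CT12. On both arrays of CT0, CT16 and CT20 it was not well above background, so its values there have no order and no wave is given for it. The r of 0.90 between the 2 probes over all 12 arrays (Spearman rho = 0.89) rests in part on the 8 arrays where the dimmer one was not well above background. The probes share the RNA, the labelling and the array.

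**Figure D2:**
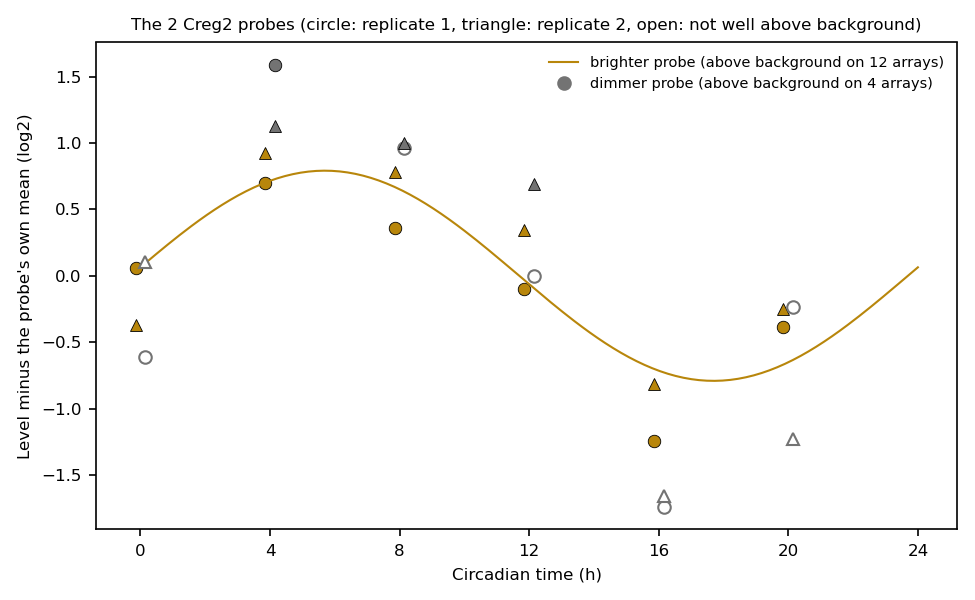
Level of the 2 Creg2 probes, each minus its own mean (log2), against circadian time in h; open symbols are arrays where the probe was not well above background, and the line is the 24 h wave fitted to the brighter probe. The brighter probe (gold) was highest at CT4 and lowest at CT16, and the dimmer one (grey) was well above background on 4 arrays, at CT4, CT8 and CT12.

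The fitted peaks put the genes in the order Creg2, Rasd2, Tspan4, Cys1, Angptl7, Leo1 and Foxs1. Rasd2 followed Creg2 by 5.04 h (95% interval 3.43 to 6.64), Tspan4 followed Rasd2 by 1.79 h (0.39 to 3.20), and Cys1 followed Tspan4 by 2.26 h (1.52 to 3.0). Angptl7 came 1.98 h after Cys1 (0.80 to 3.16) and Leo1 5.70 h after Angptl7 (4.17 to 7.23). Foxs1 and Leo1 differed by 0.45 h (-0.86 to 1.77), the one pair of neighbours whose interval holds 0.

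The clock genes give the phases against which these peaks can be read. Leo1 and Foxs1 fell with Arntl (CT22.5 ± 0.35 h, 9.02-fold), from which they differed by -0.08 h (-0.78 to 0.63) and 0.37 h (-0.65 to 1.40). The interval from Nfil3 to Leo1 held 0 as well (1.11 h, -0.11 to 2.33). Tspan4 was -0.21 h (-1.02 to 0.59) from Per2 (CT12.7 ± 0.31 h, 5.03-fold), and Cys1 came 2.04 h (1.09 to 3.0) after it. Creg2 was -1.12 h (-2.55 to 0.32) from Nr1d1 (CT6.8 ± 0.17 h, 11.5-fold), and Rasd2 came 1.23 h (0.30 to 2.17) after Dbp (CT9.5 ± 0.20 h, 18.1-fold). Angptl7 lay 4.03 h (2.58 to 5.48) after Per2 and 4.59 h (3.0 to 6.18) before Nfil3 (CT21.4 ± 0.47 h, 3.92-fold), away from all 5 reference genes. Outside these 5, Cry1 was fitted at CT17.1 ± 0.68 h (2.32-fold, limma adjusted p = 0.0651), beside Angptl7. Tef was fitted at CT10.8 ± 0.18 h (4.0-fold), beside Rasd2. Cry1 and Tef were found by their likeness to Angptl7 and Rasd2, as given below. All these intervals and peaks come from the same arrays that chose the genes and are a description.

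**Figure D3:**
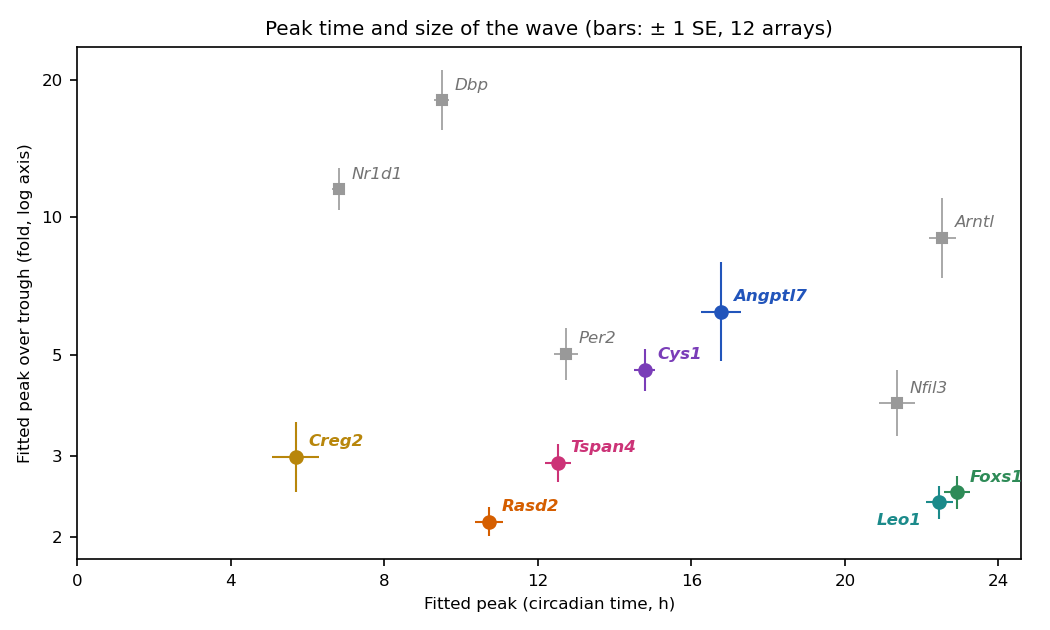
Fitted peak over trough (fold, log axis) against fitted peak (circadian time in h) for the 7 genes (coloured circles) and 5 clock genes (grey squares), with bars of 1 SE from the fit to 12 arrays. Leo1 and Foxs1 sit beneath Arntl, Tspan4 beneath Per2, and Angptl7 at CT16.8 stands apart from the 5 clock genes drawn.

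Among 13603 other genes well above background on all arrays, the closest in pattern were picked by Pearson r over the 12 arrays, which share time, slide and extraction. Leo1 was closest to Arntl (r = 0.97), Afap1l2 (0.94) and Adamts4 (0.91), and Foxs1 to Arntl (0.94), Lin37 (0.94) and Adamts4 (0.92). Tspan4 was closest to Per2 (0.96), Smpdl3b (0.95) and Tsc22d3 (0.95), and Rasd2 to Tef (0.97), Cry2 (0.95) and Cxcl12 (0.94). A clock gene stood first for 5 of the 7. For Angptl7 this was Cry1 (0.92), which had no called wave, followed by Mxi1 (0.90) and Stx7 (0.89). The 7 genes were chosen for a 24 h wave in these same arrays, which favours other genes with such a wave in these lists. Cys1 was closest to Ppp1r3b (0.96), Grik1 (0.94) and Prkce (0.94), and the genes closest to Creg2 included Neu2 (0.96) and Rela (0.93). These ranks are loose: after each slide's mean was subtracted, none of the 3 genes stayed among the top 3, except for 1 of 3 for Angptl7. Ranked by Spearman rho, 3 of 3 stayed for Tspan4, 2 of 3 for Rasd2 and 1 of 3 for each other gene. Among themselves, Leo1 and Foxs1 correlated at r = 0.90, Leo1 and Rasd2 at r = -0.92, and Cys1 with both Tspan4 and Angptl7 at r = 0.81.

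The slide bears on each of these waves, since every slide holds 2 neighbouring times. With slide as a random block, 28 of all genes (0.152%) and 5 of the 7 genes had a wave by limma's adjusted p, the calls of Creg2 and Angptl7 being lost while their waves were fitted at 3.03-fold and 7.28-fold. With slide as a fixed block, which rests on the steps within slides alone, 2 of all genes (0.0109%) and 0 of the 7 passed. Unadjusted, 2532 of all genes (13.8%) were under 0.05 in this fit, and all 7 of these genes, which were chosen for their wave in the same arrays. The fold under this block was 6.01 for Cys1, 2.87 for Tspan4, 2.78 for Foxs1, 1.75 for Leo1, 2.21 for Rasd2, 3.34 for Creg2 and 18.9 for Angptl7. The Angptl7 value is more than that measured between any 2 times, 5.87-fold. The peak moved to CT13.9 for Tspan4, CT4.7 for Creg2, CT9.9 for Rasd2, CT15.4 for Cys1, CT17.1 for Angptl7, CT22.6 for Leo1 and CT23.6 for Foxs1, which leaves their order as it was.

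**Figure D4:**
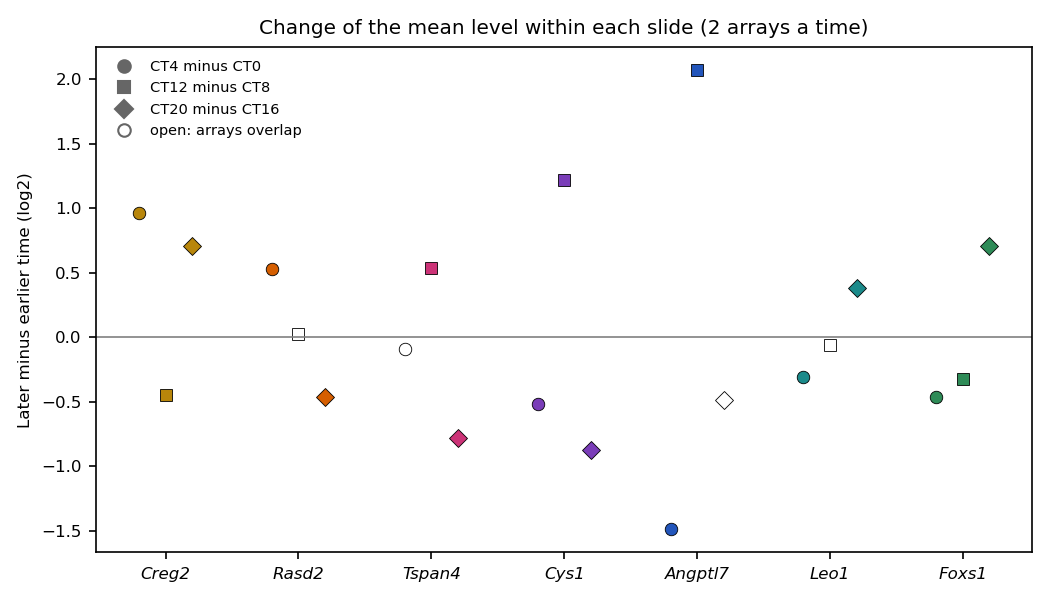
Change of the mean level from the earlier to the later time of each slide (log2, 2 arrays a time) for the 7 genes, with circles for CT4 minus CT0, squares for CT12 minus CT8 and diamonds for CT20 minus CT16; open symbols mark steps whose arrays overlap. Angptl7 has the widest steps, from -1.49 to 2.07. The share of all genes whose arrays overlap at these steps was not counted.

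The 12 h component shows how far a course departs from a single 24 h wave. It lies in the residual of the fit that chose the 7 genes, a choice that favours genes with little of it, so its size in them is a description with no test. Over all 18394 genes, 0 (0%) had such a component by limma's adjusted p, and 1959 (10.7%) were under 0.05 unadjusted. The 12 h amplitude of Angptl7 was 0.47 ± 0.12 in log2 (SE, n = 12), and its levels stayed low through CT4 and CT8 and high from CT12 to CT20. The amplitudes of the other 6 genes were between 0.07 and 0.16. The slides lie wholly within the 24 h and 12 h terms, so a 12 h component and a slide difference cannot be told apart.

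Relatives and partners of the 7 genes were listed by family or function and not by a wave, though earlier results of these data were known. Of 126 listed, 112 were tested and 0 had a 24 h wave by limma's adjusted p, against 0.62% of all genes. Unadjusted, 21 of the 112 (18.8%) were under 0.05, beside 2892 of all genes (15.7%). Their median fold was 1.18 and that of all genes 1.19.

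For Cys1, none of 19 genes of the cilium and of cystic kidney disease passed, and the largest waves were 1.44-fold for Unc119b, a carrier of lipid-modified ciliary proteins (adjusted p = 0.135), and 1.32-fold for Pkd2, the polycystin channel (adjusted p = 0.302). The 4.64-fold wave of Cys1, a gene chosen for its wave, exceeded all of them. For Tspan4, none of 25 tetraspanins passed: Tspan11 (2.13-fold, adjusted p = 0.320) and Tspan1 (1.97-fold, adjusted p = 0.441) had the largest waves, and the median was 1.17-fold.

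For Foxs1, none of 27 forkhead genes passed. Foxa2 (2.10-fold, adjusted p = 0.660) and Foxd3 (1.93-fold, adjusted p = 0.135) had the largest waves, and the Foxd3 peak at CT12.0 was opposite to that of Foxs1. For Leo1, none of 13 partners passed. Paf1, its namesake subunit, was fitted at 1.17-fold (adjusted p = 0.430) and Rnf20, an E3 ligase for histone H2B that works with it, at 1.61-fold with a peak at CT5.3 (adjusted p = 0.175).

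For Rasd2, none of 17 genes (small GTPases, with Rap1gap and Rgs14) passed, but 2 had a larger fitted wave than Rasd2 itself. Its closest relative Rasd1 was fitted at 3.5-fold with a peak at CT8.7 (amplitude 0.90, adjusted p = 0.353) and the neuronal GTPase Rit2 at 2.78-fold (adjusted p = 0.520), and the SE of their amplitudes, 0.34 and 0.39, was wider than the 0.05 of Rasd2. For Creg2, the relative Creg1 was fitted at 1.02-fold (adjusted p = 0.991). For Angptl7, none of 10 genes (angiopoietins and angiopoietin-like genes, with Tek and Tie1) passed, the largest being Angptl1 at 1.66-fold (adjusted p = 0.348). A difference between each gene's wave and those of its relatives was not tested.

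**Figure D5:**
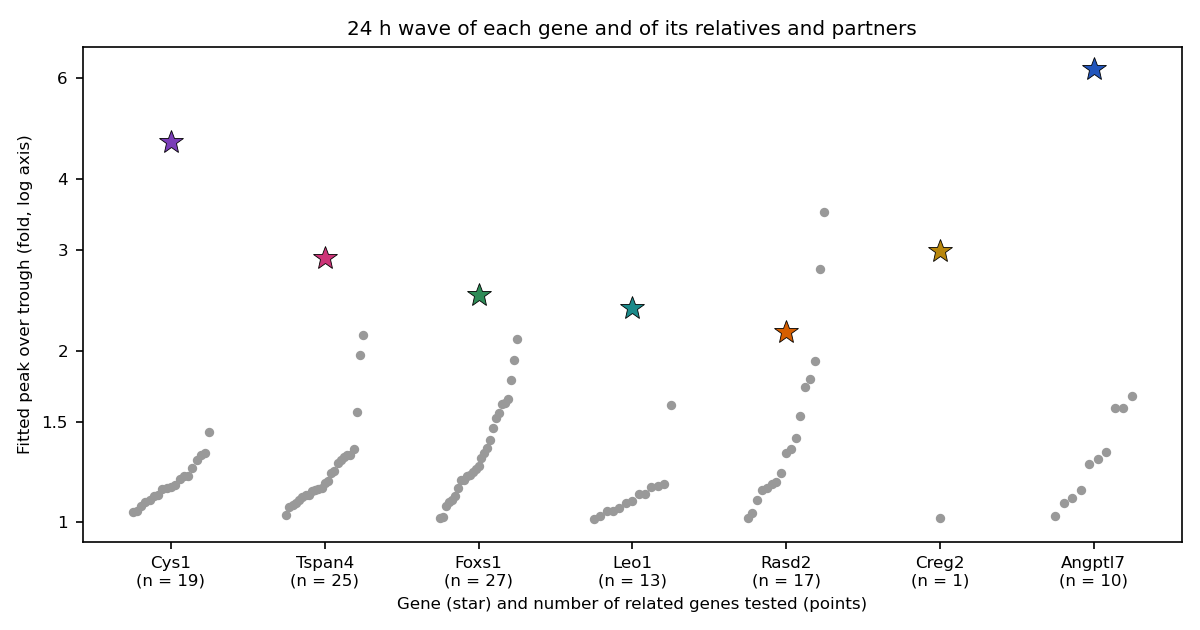
Fitted peak over trough (fold, log axis) of each of the 7 genes (star) and of its tested relatives and partners (grey points, sorted by size, number under each name). The stars were chosen by their waves and the points were not, though earlier results of these data were known when the points were listed. Each star but that of Rasd2 lies above all of its points, and 2 of the 17 genes on the Rasd2 list lie above Rasd2.

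Transcripts of other tissues varied between arrays of a time. Hepatocyte markers, of which 5 of 6 measured were well above background on all arrays, ranged in summed log2 level from -0.31 to 3.62 at CT0, -0.18 to 1.45 at CT4, 2.20 to 2.77 at CT8, 1.24 to 4.92 at CT12, 0.18 to 2.29 at CT16 and -0.82 to 5.30 at CT20. Without the 3 arrays where they were highest (1 each of CT0, CT12 and CT20), 18 genes and 2 of the 7, Cys1 and Tspan4, had a called wave. The folds of the 7 were then 4.75 for Cys1, 3.10 for Tspan4, 2.55 for Foxs1, 2.38 for Leo1, 1.98 for Rasd2, 3.37 for Creg2 and 5.64 for Angptl7, beside 4.64, 2.90, 2.50, 2.38, 2.16, 2.99 and 6.22 on all 12 arrays. Adipocyte markers, of which 5 of 6 were well above background on all arrays and the remaining one, Lep, on 11, ranged in summed log2 level from 5.50 to 8.21 at CT0, 7.59 to 8.75 at CT4, 7.47 to 7.99 at CT8, 7.67 to 8.81 at CT12, 7.96 to 8.08 at CT16 and 6.58 to 7.51 at CT20. Their sum is for the most part Cfd (5.24 to 8.25 over the arrays) and follows Cfd more than the list. The mean of the sum was highest at CT12 and lowest at CT0, as was that of Rasd2 and the reverse of Leo1 and Foxs1. Without the array on which the sum was lowest, replicate 2 of CT0, the fold was 2.02 for Rasd2, 2.37 for Leo1 and 2.63 for Foxs1. The part of adipocytes in these waves was not tested. Leaving out any single array kept the call for Cys1, Tspan4, Foxs1, Leo1 and Rasd2. The call for Angptl7 was lost without either array of CT4, CT8 or CT16 or without replicate 2 of CT20, and that for Creg2 was lost without any array except replicate 2 of CT0.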

How the data were processed

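Per the file headers, the scanner intensities were read by Agilent Feature Extraction 10.5.1.1, background-subtracted and detrended within each array, with probe positions on mm7. The marks for well above background, saturated and outlier spots come from the same deposited files. The authors' value table holds log2 values whose normalisation is not given in the sources used here; per the submitters' processing notes R 2.8.1 was used. Here log2 processed signal was centred on the 75th percentile of each array (43379 spots, 41174 probes, 271 left out without a value). Genes needed a probe well above background on at least 4 arrays, and the brightest probe stood for a gene. Genes were named through RefSeq. Cosine and sine terms were fitted with limma 3.58.1 in R 4.3.3 (9 residual degrees of freedom, 7 with the 12 h terms), tested on simulated data. The members, the gene lists and the tests were chosen with earlier results of these data known. Named genes were every member, the 3 most like each, the 2 related genes of largest amplitude per list and 5 clock genes; Paf1, Creg1 and Tcap included by list. Some genes that this rule names are not reported here. Alternatives covered background, scaling, filter, probe choice, blocks and left-out arrays. The number of arrays limits the precision.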

Additional observations from a re-analysis of the deposited data

How the results depend on the processing

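All 7 waves kept their peak within 1.39 h under every alternative run. The count of genes with a 24 h wave, 114, was 62 when arrays were scaled to their medians and 50 when dim probes were kept. It was 88 with the mean of all probes of a gene and 116 with quantile normalisation. Higher counts came with normexp correction (164), the authors' value table (171) and an intensity trend in the variance prior (163). With only genes well above background on all 12 arrays it was 166. Blocking on slide gave 28 (random) and 2 (fixed). Dropping the 3 arrays with most hepatocyte transcript, chosen after seeing the data, gave 18. The count ranged from 42 to 104 when single arrays were left out. The count among the 7 genes was 0 under the fixed slide block, 2 without those 3 arrays and 5 to 7 when single arrays were left out. A time left with 1 array is assumed to vary like the others. With the replicate block the counts were 92 and 6. Creg2 was the gene lost there (adjusted p = 0.0544, limma) and also under quantile normalisation (0.0521), median scaling (0.0585) and no filter on dim probes (0.0951), beside 0.0461 as reported. The arrays' numbers are not shown to pair them: over 15 pairs of times the same-numbered deviations correlated from -0.20 to 0.44, with 10 over 0.1. Related genes with a wave numbered 0 under every alternative run, as did the 7 genes with a 12 h component. Genes with a 12 h component ranged from 0 to 1 when single arrays were left out, the 1 being Kndc1, without the first array of CT4. The 12 h component with slide as a block could not be fitted. Of 169 amplitudes under alternatives 11 moved by over 1 within-time SD, and of 169 peak times 6 moved by over 1 SE. Signal over background limits Creg2, whose fold ran from 1.47 in the authors' value table to 4.49 with the mean of both probes, which takes in values of the dimmer one not well above background. With normexp correction and in the authors' value table the fold was also lower for Foxs1 (1.99 and 1.95), Rasd2 (1.63 in both) and Angptl7 (4.23 and 4.22). It was 2.28 and 2.26 for Leo1, 4.62 and 4.60 for Cys1, and 2.88 and 2.89 for Tspan4.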
